A study of Bos taurus with 36 samples.

Results

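Expression of 7 genes of blood vessels, PECAM1, CDH5, VWF, KDR, FLT1, TEK and VEGFA, was examined in the lactating mammary gland of the cow. Every probe set whose only gene symbol in the array's annotation was 1 of these 7 was taken, which gave 14 of the 24016 probe sets tested; 24128 were on the array file, of which 112 were control probe sets. FLT1 had 3 probe sets, TEK had 1, and each of the other genes had 2, which are called the first, the second and the third in order of their mean level. Their Entrez gene IDs are 282303 for PECAM1, 414735 for CDH5, 280958 for VWF, 407170 for KDR, 503620 for FLT1, 280939 for TEK and 281572 for VEGFA. The tissue came from 6 multiparous Holstein cows subjected to unilateral frequent milking, a design in which 1 side of an udder is milked more often and the other side of the same udder serves as its control. From day 1 to day 21 of lactation the right side of each udder was milked 4 times daily (4×) and the left side 2 times daily (2×), and from then on all glands were milked 2×. Biopsies of 1 gland of each side were taken on days 21, 23 and 40, and RNA of each was measured on a GeneChip Bovine Genome Array of its own, 36 in all, which gave 6 groups of 6 cows. Both sides had been milked a few hours before a biopsy, and the cows were sedated. Right glands had the 4× milking in every cow, and rear glands were biopsied on days 21 and 40 but fore glands on day 23, so side cannot be told apart from milking frequency, nor gland position from the step between day 21 and day 23. The ages of the cows and the genome build behind the probe sets were not given in the sources used here.

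Capillaries of the mammary gland run along the secretory alveoli and bring the glucose, amino acids and fatty acids from which milk is made. Endothelial cells, which line these vessels, are held together by adhesion molecules such as PECAM1 and VE-cadherin, the product of CDH5, and store the clotting factor VWF for release. VEGFA is a secreted growth factor, made largely by cells other than the endothelium, that acts on endothelial cells through the receptors KDR and FLT1, while TEK is the receptor for the angiopoietins, which govern the stability of vessels.

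Levels are log2 signals as summarized by the authors with the Robust Multichip Average, so a difference of 1 is a 2-fold difference. A level depends on the probes as well as on the transcript, so levels were compared between groups for the same probe set only. Differential expression is the level in the 4× gland minus that in the 2× gland within a cow and day. It was tested with limma on these paired differences, with Benjamini-Hochberg adjusted p-values over the 24016 probe sets. Array medians ranged from 6.04 to 6.15. The mean of 11 genes of milk secretory cells, caseins and whey proteins among them, lay between 13.41 and 13.98 in every array, as in a lactating gland. Of 24 further markers of endothelial cells that were measured, 22 had a mean level above 5, among them CAV1 of the caveolae at 9.76 and the sialomucin EMCN at 8.58, and the selectin SELE at 4.12 and the receptor CALCRL at 4.77 did not.

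Differential expression of both probe sets of VEGFA, the first of 3 of FLT1 and the single one of TEK had means of 0.31 to 0.46 on the log2 scale on day 21, at the end of 4× milking, and the 6 cows were far from uniform. Of the 14 probe sets, 4 (28.6%) had a difference on day 21 at an unadjusted p under 0.05, and all 4 were higher in the 4× gland; among all 24016 probe sets the share was 15.9%, or 8.02% counted in that direction. None of the 14 passed at an adjusted p under 0.05, and their smallest adjusted p from limma was 0.199. The SEs and p-values rest on 1 spread per probe set shared by the 3 days. With a separate spread for each day, 0 of the 14 had an unadjusted p under 0.05 on day 21. The SD of the day 21 differences was 0.76 for VEGFA (first probe set), 0.45 for FLT1 (first) and 0.52 for TEK. On days 23 and 40 the SDs were 0.19 and 0.19, 0.25 and 0.13, and 0.31 and 0.24. The day 21 differences were positive for 12 of the 14, with a median of 0.13, and the median over all probe sets was 0.02. Without the day 21 pair of cow 1, whose 2× gland stood apart, 0 of the 14 had an unadjusted p under 0.05. Leaving out cow 1, cow 3 or cow 4 on all days gave 1, 2 and 7, and the 1 without cow 1 was the second probe set of CDH5, which was not among the 4. On day 23, after 4× milking had ended, 1 of the 14 had an unadjusted p under 0.05 against 2.64% of all probe sets (0 without cow 2, cow 4 or cow 6, and TEK in its place without cow 3). On day 40 there were 0 of the 14 against 20.4%. With a cow left out, day 40 gave 1 higher without cow 1 or cow 4 and 1 lower without cow 3. Without cow 5 it gave 1 higher and 1 lower. The 95% confidence intervals of these differences reached from 0.14 to 0.38 to either side. In a piece of tissue, fewer cells of a type and less RNA in each of those cells cannot be told apart, for these genes as for all markers named here.

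**Figure D1:**
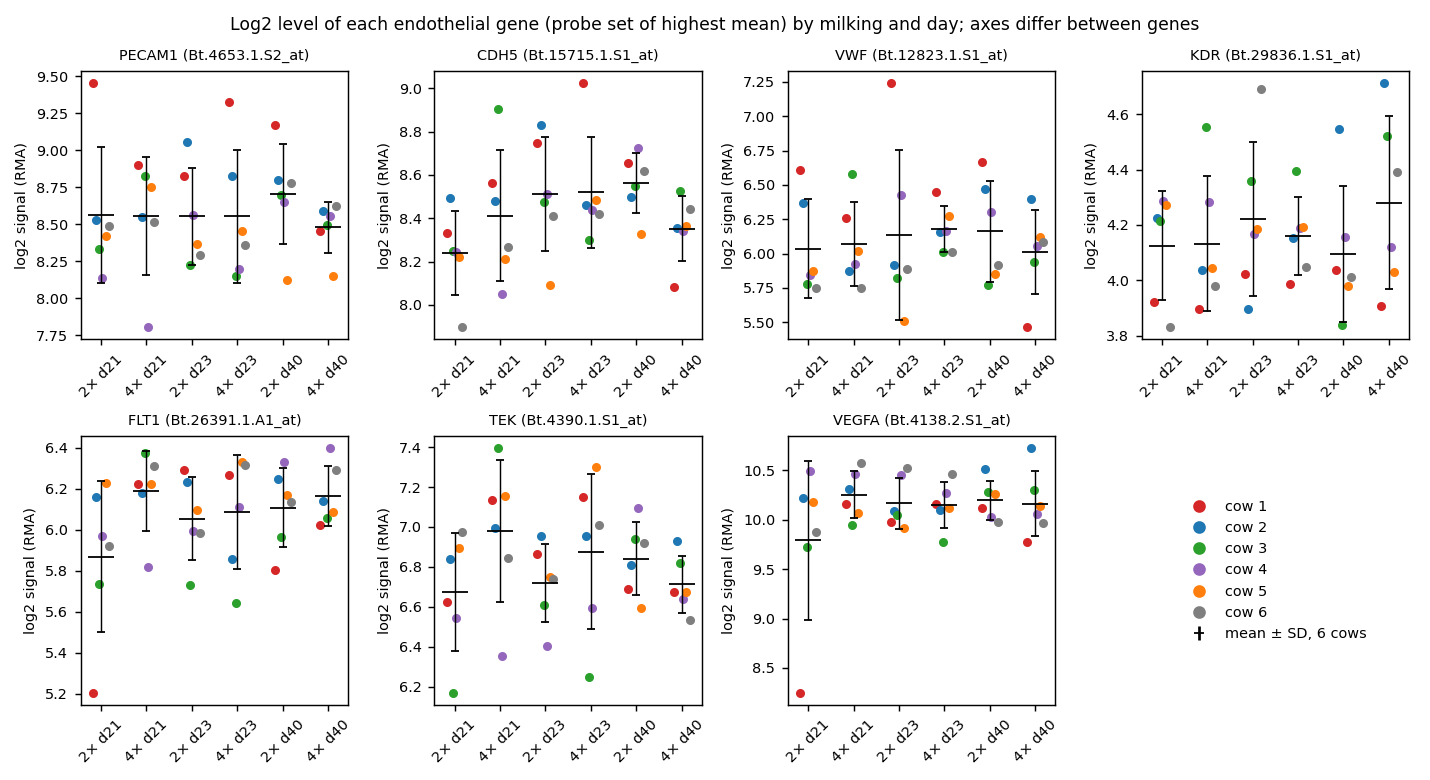
Level (log2 signal) of the probe set of highest mean for each of the 7 genes, in the 2× and 4× glands on days 21, 23 and 40. Each point is 1 gland, coloured by cow, and bars are the mean and SD of 6 cows. The groups overlapped for every gene, and the 2× gland of cow 1 on day 21 was at 8.25 for VEGFA and 9.46 for PECAM1.

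PECAM1, which is also carried by platelets and leukocytes, had levels of 8.14 to 9.46 with a median of 8.46 in the 2× glands on day 21, and of 7.81 to 8.90 with a median of 8.65 in the 4× glands (first probe set). The highest of the 2× glands was that of cow 1 and the lowest of the 4× glands was that of cow 4, and the groups overlapped over most of their range. Means were 8.56 ± 0.46 in the 2× and 8.56 ± 0.40 in the 4× glands (SD, n = 6) on day 21, 8.56 ± 0.33 and 8.55 ± 0.45 on day 23, and 8.70 ± 0.34 and 8.48 ± 0.17 on day 40. Differential expression on day 40 was negative in 5 of 6 cows, with a mean of −0.23 (SE 0.12), an unadjusted p = 0.0764 and an adjusted p = 0.280 from limma. Cow 1 had the largest difference that day, at −0.72, and without cow 1 the mean was −0.13. The second probe set of PECAM1 had differences of 0.14 (SE 0.10), 0.17 (SE 0.10) and −0.06 (SE 0.10) on the 3 days. Over the 36 arrays, with the mean of each group removed, the 2 probe sets of PECAM1 had a correlation of 0.84.

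VE-cadherin joins neighbouring endothelial cells at adherens junctions and is among the most specific markers of endothelium. Levels of CDH5 were 7.90 to 8.49 with a median of 8.25 in the 2× glands on day 21 and 8.05 to 8.90 with a median of 8.37 in the 4× glands (first probe set). Cow 3 had the highest 4× gland and cow 6 the lowest 2× gland, and 3 of 6 cows were higher in the 4× gland. The means on day 40 stood the other way, with 8.56 ± 0.14 in the 2× and 8.35 ± 0.15 in the 4× glands (SD, n = 6) and a negative difference in 5 of 6 cows. Differential expression was 0.17 (SE 0.11) on day 21, 0.01 on day 23 and −0.21 on day 40, for which the unadjusted p was 0.0625 and the adjusted p was 0.263. Between days 21 and 40 it changed by −0.38 (SE 0.15), with an unadjusted p = 0.0191 and an adjusted p = 0.789 from limma. Here and below, a change of differential expression was taken between day means. The differences of a cow were not paired across days. That change was −0.37 without the day 21 pair of cow 1, and −0.30 with an unadjusted p = 0.0734 without cow 1 on all days. In the 2× glands alone, the level of the first probe set was higher on day 40 than on day 21 in 6 of 6 cows, by a mean of 0.32 (SE 0.12, unadjusted p = 0.0107, adjusted p = 0.553). The smallest of these rises was 0.01. For the second probe set that mean was 0.08, with 3 cows higher and 3 lower. The second probe set had a difference of 0.26 (SE 0.16) on day 21 but 0.10 (SE 0.16) on day 40, where its sign was opposite to that of the first; the correlation of both over the arrays was 0.65.

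VWF carries platelets to an injured vessel wall and is made by endothelial cells and by the megakaryocytes that form platelets. Its levels lay between 5.46 and 7.24 over all 36 arrays (first probe set), and cow 1 had the highest of all, in the 2× gland on day 23, and the lowest of all, in the 4× gland on day 40. Differential expression in cow 1 was −0.35, −0.79 and −1.20 on days 21, 23 and 40. In the other 5 cows it lay between −0.24 and 0.27 on day 40, and the mean of all 6 was −0.15 (SE 0.18), which became 0.06 without cow 1. The means on days 21 and 23 were 0.03 and 0.04. The second probe set of VWF had a mean level of 4.51, near the background of the array, and had differences of 0.11, 0.11 and 0.15; its correlation with the first was 0.24.

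Both probe sets of KDR, the principal signalling receptor for VEGFA on blood vessels, were near the background, with means of 4.17 (first) and 3.29 (second) over the 36 arrays; 7491 of all probe sets had a mean under 5. Their correlation with each other over the arrays was 0.21. Differential expression was 0.01 and 0.00 on day 21, −0.06 and −0.07 on day 23, and 0.19 (SE 0.11) and 0.14 (SE 0.07) on day 40. The difference of 0.14 had an unadjusted p = 0.0509 and an adjusted p = 0.245, with 4 of 6 cows higher in the 4× gland. At signals this low the values say nothing of whether the receptor was present.

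FLT1 binds VEGFA tightly and has a soluble form that holds the ligand away from KDR. Its first probe set had levels of 5.21 to 6.23 with a median of 5.94 in the 2× glands on day 21, and of 5.82 to 6.37 with a median of 6.22 in the 4× glands. Cow 1 held the lowest 2× gland and cow 4 the lowest 4× gland, and the groups overlapped. Cow 1 had a day 21 difference of 1.02, cow 3 of 0.64 and cow 6 of 0.39, while those of the other 3 cows lay between −0.15 and 0.02. Their mean of 0.32 (SE 0.12) had an unadjusted p = 0.0123 and an adjusted p = 0.20, and without the day 21 pair of cow 1 it was 0.18 with an unadjusted p = 0.10; without cow 3 on all days it was 0.26 (unadjusted p = 0.0712). On days 23 and 40 the means were 0.03 and 0.06 (SE 0.12). The other probe sets of FLT1 had mean levels of 4.14 and 4.03 and did not follow the first, with differences on day 21 of 0.04 and −0.07. For the third the difference on day 23 was 0.21 (SE 0.10), with 4 of 6 cows higher, an unadjusted p = 0.0489 and an adjusted p = 1.000 from limma; it is the 1 probe set counted above for that day.

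TEK, also known as TIE2, had levels of 6.17 to 6.97 with a median of 6.73 in the 2× glands on day 21 and of 6.36 to 7.39 with a median of 7.07 in the 4× glands (its only probe set). The lowest 2× gland and the highest 4× gland were those of cow 3, whose difference was 1.22; differences in the other cows lay between −0.19 and 0.51. The mean difference was 0.31 (SE 0.14), with an unadjusted p = 0.0380, an adjusted p = 0.286 and 4 of 6 cows higher in the 4× gland. It was 0.12 without cow 3 on all days and 0.26 without the day 21 pair of cow 1, with unadjusted p-values of 0.281 and 0.0925, and leaving out cow 2 or cow 5 gave 0.34 and 0.31, with unadjusted p-values of 0.050 and 0.0582. On days 23 and 40 the differences were 0.16 and −0.13 (SE 0.14), and between days 21 and 40 it changed by −0.43 (SE 0.20, unadjusted p = 0.0371, adjusted p = 0.789).

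**Figure D2:**
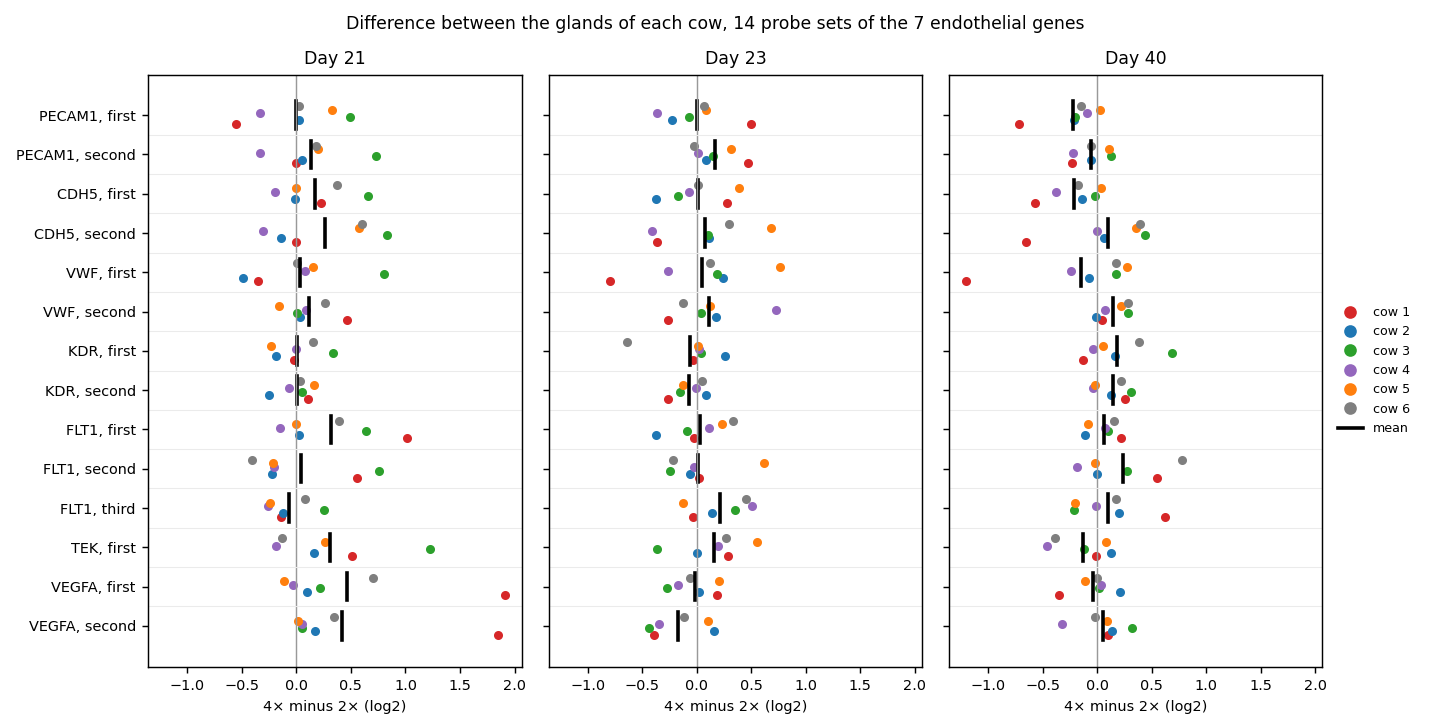
Differential expression (4× gland minus 2× gland of the same cow, log2) of each of the 14 probe sets on days 21, 23 and 40. Points are cows and black bars are means of 6 cows. On day 21 cow 1 was at 1.91 and 1.85 for the 2 probe sets of VEGFA, cow 3 was at 1.22 for TEK, and on day 40 cow 1 was at −1.20 for VWF.

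VEGFA, the ligand, had the widest spread between cows in a single group. Its levels in the 2× glands on day 21 were 8.25 in cow 1 and 9.73 to 10.49 in the other cows, while the 4× glands lay between 9.94 and 10.57 with a median of 10.24 (first probe set). The other 35 arrays, of all groups, lay between 9.73 and 10.72. Group means were 9.79 ± 0.80 in the 2× and 10.25 ± 0.24 in the 4× glands (SD, n = 6) on day 21, 10.17 ± 0.26 and 10.15 ± 0.23 on day 23, and 10.20 ± 0.20 and 10.16 ± 0.33 on day 40. The day 21 difference of cow 1 was 1.91, that of cow 6 was 0.70, and the other 4 cows had −0.11 to 0.22. The mean of 0.46 (SE 0.17) had an unadjusted p = 0.0117 and an adjusted p = 0.199 from limma; without the day 21 pair of cow 1 it was 0.17 (SE 0.10), with an unadjusted p = 0.0987. Without cow 6 on all days it was 0.42 (unadjusted p = 0.0504).

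The second probe set of VEGFA gave much the same picture, and its correlation with the first over the arrays was 0.84. In the 2× glands on day 21 cow 1 was at 5.80 and the other cows at 7.33 to 8.31. Its difference on day 21 was positive in 6 of 6 cows, at 1.85 in cow 1 and 0.02 to 0.35 in the others. The mean was 0.42 (SE 0.16, unadjusted p = 0.0197, adjusted p = 0.227), and it was 0.13 (SE 0.10) with an unadjusted p = 0.196 without the day 21 pair of cow 1. On day 23 the difference was −0.17 (SE 0.16), and 4 of 6 cows were lower in the 4× gland.

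The change of differential expression from day 21 to day 23, when 4× milking ended, was −0.59 (SE 0.23) for this probe set and −0.48 (SE 0.24) for the other probe set of VEGFA, with unadjusted p-values of 0.0197 and 0.0555 and adjusted p-values of 0.407 and 0.473. Without the day 21 pair of cow 1 the changes were −0.30 and −0.19, with unadjusted p-values of 0.0308 and 0.175. Without cow 1 on all days they were −0.25 and −0.23, with unadjusted p-values of 0.0756 and 0.105, so that the first of these calls was lost, and with a random or a fixed block for cow its unadjusted p was 0.0752 and 0.0675. In each of these settings the third probe set of FLT1, near the background, had an unadjusted p under 0.05 in the opposite direction, at 0.32 without cow 1 and 0.29 with either block. The second probe set of VEGFA was the 1 of the 14 with an unadjusted p under 0.05 for this change, against 10.8% of all probe sets (2 without cow 4 and 3 without cow 5). For the change from day 21 to day 40 the count was 3 of 14 against 6.01%, made up of TEK and the first probe sets of CDH5 and VEGFA, with −0.50 (SE 0.24) for VEGFA. The second probe sets of CDH5 and VEGFA were not among them. Without the day 21 pair of cow 1 the count was 1, CDH5, and without cow 1 or without cow 3 on all days it was 0 and without cow 6 it was 1, TEK.

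Within the 4× glands, 0 of the 14 probe sets differed between days at an unadjusted p under 0.05 in each of the 3 steps, where all probe sets gave 3.8%, 8.68% and 6.55% for day 23 minus day 21, day 40 minus day 21 and day 40 minus day 23. Within the 2× glands 2 of the 14 were higher on day 23 than on day 21 (against 16.1% of all probe sets), VEGFA by 0.58 (SE 0.22, second probe set) and CDH5 by 0.27 (SE 0.12, first probe set). On day 40, 3 were higher than on day 21 (against 6.79%), CDH5 by 0.32 (first probe set) and both probe sets of VEGFA by 0.53 and 0.41. From day 23 to day 40 the count was 1 (against 8.08%), KDR at −0.15 and near the background. None of these passed at an adjusted p under 0.05 in limma with cow as a block, where the share of all probe sets was at most 0.0583% (0.00416% from day 21 to day 40 in the 2× glands), and without the day 21 pair of cow 1 the counts from day 21 to day 23 and to day 40 were 0 and 1, the latter CDH5. With a cow left out on all days, the count from day 21 to day 23 in the 2× glands was 0 without cow 1, 1 without cow 6 and 4 without cow 4 or cow 5, that from day 21 to day 40 was 1 without cow 1 or cow 3, and that from day 23 to day 40 was 0 without cow 1, cow 3 or cow 6 and 2 without cow 4. When the 6 groups of a probe set were put in order of their means, all 70 steps between neighbours were smaller than the larger SD of both groups. Ordering splits the range of the means into small steps, and the SD between cows leaves out the pairing. These steps therefore cannot show that the groups were alike.

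The gland of cow 1 that stood apart in VEGFA also stood apart in markers of some other cells. In the 2× gland of cow 1 on day 21 the mean of 8 markers of ductal and luminal epithelium was 10.76, the highest of that group, whose lowest was 9.24. The mean of 11 milk secretory genes in that gland was 13.41, the lowest of all 36 arrays. The mean of 3 measured platelet markers, of a list of 8, was 7.43, where the lowest of the group was 5.28. Of these 3, PF4 and ITGA2B had mean levels near the background over the 36 arrays, at 4.46 and 4.60. PF4 was not near it in every array, and its highest level was 8.81, against 5.03 for ITGA2B. Differences on day 21 in cow 1 were −1.40 for the ductal list, 0.55 for the milk secretory list and −2.02 for the platelet list. The platelet value came from PF4 and ITGB3, whose means of −0.84 and −0.69 over 6 cows became −0.21 and −0.36 without cow 1. For ITGA2B the mean of −0.08 became −0.15, so cow 1 lay above the mean of the other cows in that gene. For the ductal list the other 5 cows lay between −0.49 and −0.03. Its genes were not uniform, and 2 of them are named after their values were seen. ELF5 was at 0.12 on day 21, positive in 6 of 6 cows, and at 0.05 without cow 1. The probe set used for KRT8, with a mean level of 5.07, was at −0.29, and at −0.30 without cow 1. These values speak for that probe set only and not for the gene as a whole. The paper lists the gene by a different probe set and reports lower expression under more frequent milking. For 10 leukocyte markers cow 1 did not stand apart, with a difference of −0.25 where cow 3 was at −0.24 and the others lay between −0.18 and −0.04. The part of these markers in the differences of VEGFA and FLT1 was not tested.

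**Figure D3:**
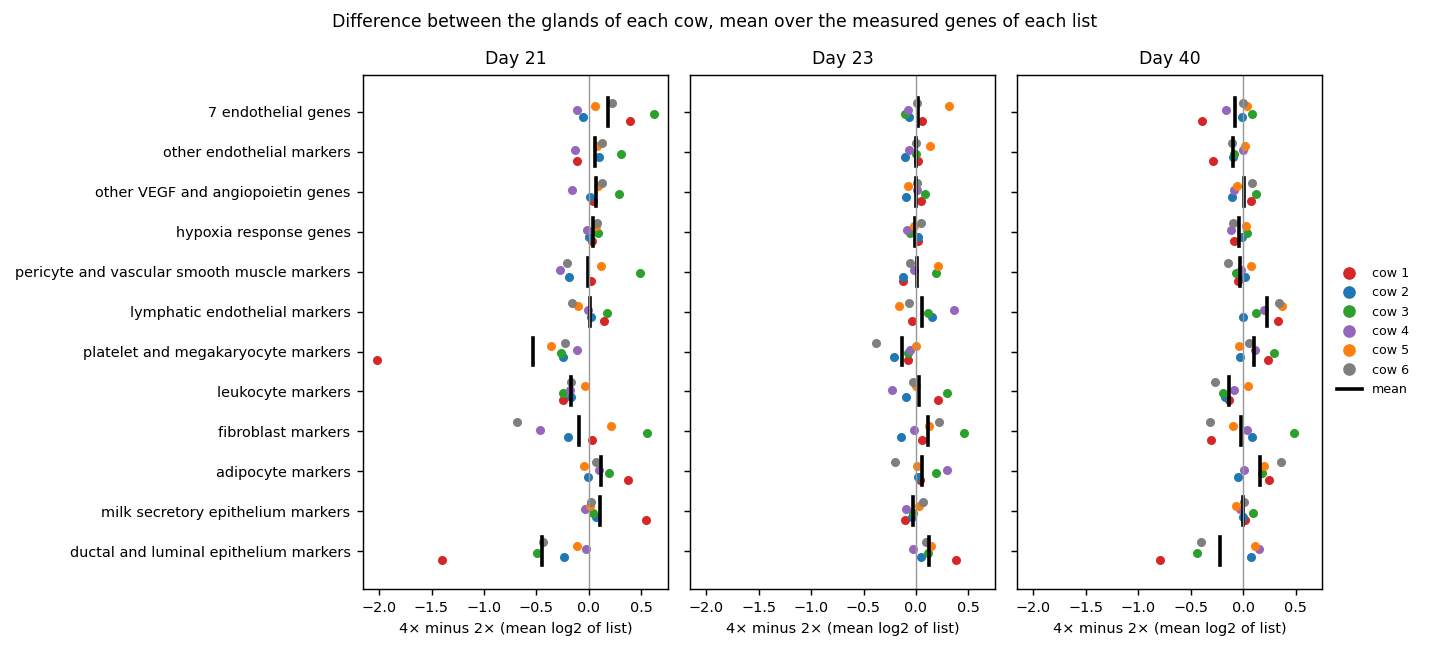
Differential expression (4× minus 2×, log2, mean over the measured genes of each list with 1 probe set for each gene) in each cow on days 21, 23 and 40. Points are cows and black bars are means. The 7 genes ranged from −0.12 to 0.62 on day 21 with cow 3 highest, and cow 1 stood apart on that day in the platelet list at −2.02 and the ductal list at −1.40.

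The wider endothelial programme was read from 24 measured genes of a list of 34 further endothelial markers, with 1 probe set for each gene. On day 21, 6 were higher and 0 lower in the 4× gland at an unadjusted p under 0.05, where all 9155 genes gave 8.29% higher and 9.61% lower. The 3 with the smallest p were THBD, the thrombomodulin of the vessel wall, at 0.35 (SE 0.15), RAMP2, a partner of the adrenomedullin receptor, at 0.24 (SE 0.10), and PLVAP, which forms the diaphragms of fenestrae, at 0.25 (SE 0.11). The others were EGFL7, TIE1 and ENG, at 0.18, 0.22 and 0.18, of which EGFL7 and ENG were named after their values were seen, and TIE1, the partner receptor of TEK, was higher in 6 of 6 cows. The median of the 24 was 0.08 and that of all genes 0.01, and 18 of 24 were positive. The cows did not share this direction. By cow, the mean of the 24 on day 21 was 0.06 (SD 0.16, n = 6). It lay between −0.13 in cow 4 and 0.31 in cow 3, and cow 1 was at −0.11. None of the 24 passed at an adjusted p under 0.05.

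On day 23, 1 of the 24 was higher and 1 lower (against 1.41% and 1.07% of all genes): PROCR, the receptor of protein C, at 0.16, and ENG, a co-receptor for the TGF-beta family, at −0.21. Each had that sign in 6 of 6 cows, and the adjusted p of both was 1.000. On day 40, 1 was higher and 3 were lower (against 8.9% and 9.51%), and 18 of 24 were negative, with a median of −0.08. S1PR1 was at 0.25, and SOX18, PLVAP and TIE1 were at −0.33, −0.26 and −0.22. SOX18, a transcription factor of vessels, and TIE1 were negative in 6 of 6 cows. The genes of days 23 and 40 were named after their values were seen. By cow, the mean of the 24 on day 40 lay between −0.29 in cow 1 and 0.02.

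Among 11 measured genes of the VEGF and angiopoietin families and their receptors, of a list of 12, only TIE1 had an unadjusted p under 0.05 on day 21, where 8.29% of all genes were higher and 9.61% lower. TIE1 is in the list of further endothelial markers as well, with the same probe set, so its values are counted in both lists. FLT4, the receptor of VEGFC, was at 0.23 and ANGPT2, an angiopoietin that opposes TEK signalling, at −0.25 that day, neither of them past that threshold. On day 40, 3 were higher and 2 lower (against 8.9% and 9.51% of all genes), with FLT4 at 0.35 (SE 0.12), ANGPT4 at 0.29, VEGFD at 0.25, NRP1 at −0.30 and TIE1 at −0.22. These day 40 genes were also named after their values were seen. FLT4 belongs to the 4 measured lymphatic markers as well, which were all positive on day 40 with a median of 0.22; LYVE1, a hyaluronan receptor of lymphatic vessels, was at 0.29 but had a mean level of 4.72.

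VEGFA is a known target of the hypoxia-inducible factors, and of 15 measured genes of the hypoxia response 3 were higher and 2 lower on day 21 at an unadjusted p under 0.05 (against 8.29% and 9.61% of all genes). SLC2A1, a glucose transporter, was at 0.32 (SE 0.11) and positive in 6 of 6 cows, BNIP3, a protein of mitophagy, was at −0.25 and P4HA1, a collagen hydroxylase, at 0.15 and positive in 6 of 6. Without cow 1 the mean difference of SLC2A1 was 0.13. Members of the list thus lay on both sides, with 8 of 15 positive and a median of 0.06. Of 10 measured pericyte and vascular smooth muscle markers 1 was higher on day 21, close to the 8.29% of all genes, RGS5 of pericytes at 0.28, and 5 of 10 were positive.

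**Figure D4:**
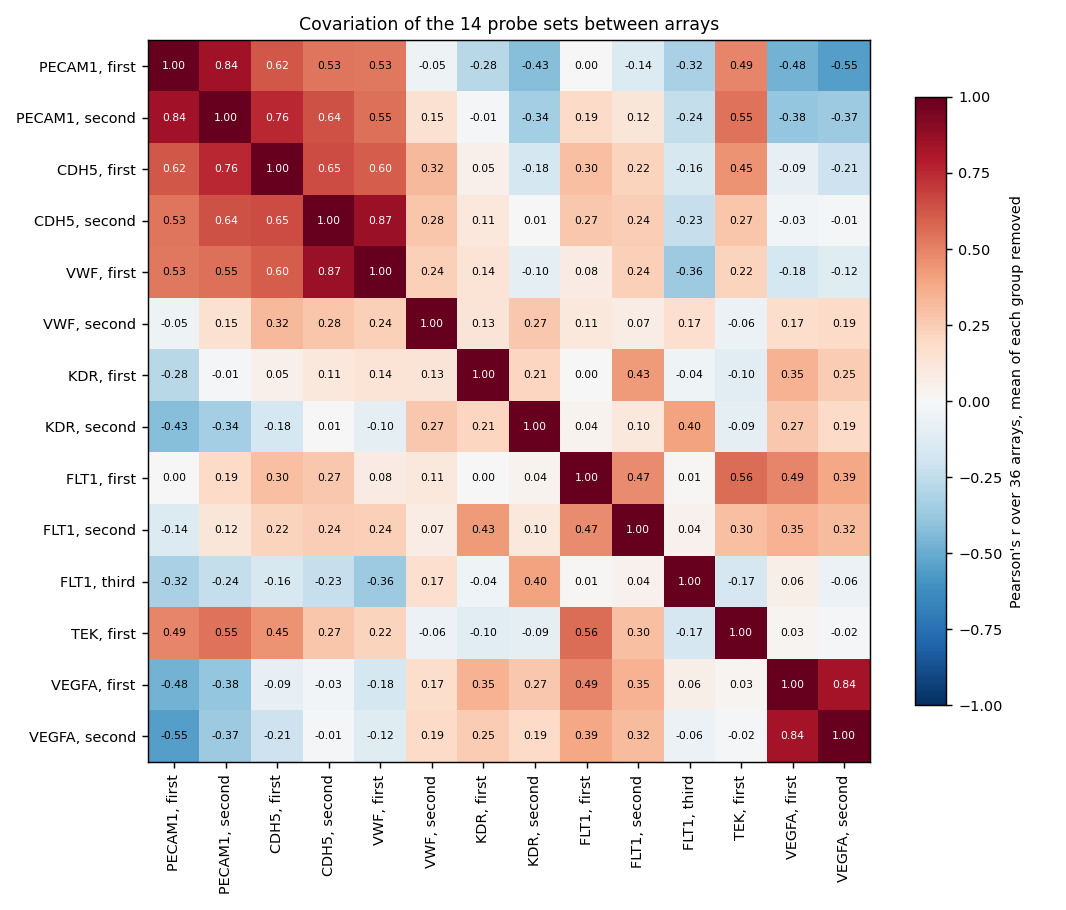
Pearson's r between the 14 probe sets over the 36 arrays after the mean of each of the 6 groups was removed. PECAM1, CDH5 and the first probe set of VWF formed a block with r from 0.53 to 0.87, and VEGFA lay outside it, with −0.48 against the first probe set of PECAM1 (−0.19 without cow 1).

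PECAM1, CDH5 and VWF varied together between glands. These correlations are over the 36 arrays with the mean of each group removed, and the arrays share 6 cows, so they are given as a description. Over the 5 probe sets of PECAM1, CDH5 and VWF above background, r lay between 0.53 and 0.87, with the highest value between CDH5 (second) and VWF (first), and without cow 1 between 0.35 and 0.81. TEK was at 0.49 with PECAM1 and 0.56 with FLT1 (0.63 with both without cow 1). For the first probe sets, VEGFA was at −0.48 with PECAM1, −0.09 with CDH5 and 0.49 with FLT1. These values leaned on cow 1, without which they were −0.19, −0.08 and 0.13. FLT1 was at 0.00 with PECAM1 over all arrays and at 0.45 without cow 1, and KDR, near the background, was at −0.28 and −0.43 with PECAM1 (−0.11 and −0.35 without cow 1).

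The 5 named genes most like PECAM1 over the 36 arrays were COL4A1 (r = 0.88), a collagen of basement membranes, IGFBP7 (0.86), a secreted protein abundant in vessels, CD99 (0.85), an adhesion molecule, ST3GAL2 (0.84), a sialyltransferase, and VIM (0.83), the intermediate filament of mesenchymal and endothelial cells. Those most like VEGFA were MAPK12 (0.91), a p38 kinase, MUC15 (0.90), a mucin of the milk fat globule membrane, PMM2 (0.89), a phosphomannomutase, LPO (0.88), the lactoperoxidase of milk, and MLX (0.87), a transcription factor. Without cow 1 the values were 0.74 to 0.78 for the first 5 and 0.71 to 0.86 for the second 5. The order changed, and 1 of the 5 was still among the 5 most like PECAM1 (ST3GAL2) and 2 of the 5 among those most like VEGFA (MAPK12 and PMM2).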

How the data were processed

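Mammary biopsies of 6 cows were hybridised to 36 arrays, 1 for each gland and day. Signals of each probe set are the authors' log2 values from the Robust Multichip Average (version not given in the sources used here), which includes background correction and normalization across arrays; the deposited log2 values were used as they stood. Arrays were grouped by milking and day from their labels, and the replicate number of a label was taken as the cow. Whether a number stood for the same cow on each day was not checked. Blocks for cow and fits with a cow left out on all days rest on it. The glands of a cow and day were paired because they came from the same animal: with group means removed, the correlation of a pair was above 0 in 18 of 18 pairs (0.242 to 0.665), and in 16 the gland was most like its partner. Paired differences were fitted by lmFit and eBayes of limma 3.58.1 (R 4.3.3), with day means and 1 spread over the days, and days within a milking group with cow as a block, each over 24016 probe sets with Benjamini-Hochberg adjustment and a threshold of 0.05. The fits were tested on simulated data. The array's annotation, which can be old, named a single gene for 13318 probe sets, more than 1 for 86 and no gene for 10724. For the 11 other gene lists, the probe set of highest mean was used for each of 9155 genes. The members and lists were chosen with earlier results of these data known. Named were all members, the 3 genes of a described list with the smallest p on day 21, defining markers, and the 5 genes most correlated with PECAM1 and with VEGFA; other names are marked as chosen after their values were seen. Alternatives were other blocks for cow, other estimates of the spread, a filter at a mean of 5, other scalings and each cow left out; leaving out the day 21 pair of cow 1 was chosen after seeing the data. Probe level signals were not used here, and no sequences or coordinates are printed. Python 3.11.15 was used for tables (pandas 2.3.3 with numpy 2.4.6) and plots (matplotlib 3.10.9).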

Additional observations from a re-analysis of the deposited data

Results flagged for a closer look

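In 12 of 126 groups of 6 values (levels in each group and paired differences on each day, for the 14 probe sets) the highest or lowest cow lay far from the others by the 95% critical value of Dixon's test. Chance gives about 1 in 20 such groups, and the groups are not independent, since the same arrays enter levels and differences.

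Cow 1 accounted for 7 of them. In its 2× gland on day 21 VEGFA (first probe set) was at 8.25, where the other cows were at 9.73 to 10.49, and PECAM1 (first probe set) was at 9.46, where the others were at 8.14 to 8.53. Its day 21 difference of VEGFA (second probe set) was 1.85, against 0.02 to 0.35. In its 4× gland on day 23 the probe sets of CDH5 were at 9.02, against 8.30 to 8.48 (first), and at 6.85, against 6.38 to 6.55 (second). On day 40 its differences were −1.20 for VWF (first probe set), against −0.24 to 0.27, and −0.72 for PECAM1 (first probe set), against −0.21 to 0.02.

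Cow 4 was lowest among the 4× glands on day 21 for PECAM1 (first probe set), at 7.81 against 8.51 to 8.90, and for FLT1 (first probe set), at 5.82 against 6.18 to 6.37. Cow 5 was lowest among the 4× glands on day 40 for PECAM1 (first probe set), at 8.15 against 8.46 to 8.62. The other 2 values were day 23 differences of probe sets near the background, −0.64 in cow 6 for KDR (first probe set), against −0.04 to 0.25, and 0.62 in cow 5 for FLT1 (second probe set), against −0.24 to 0.02.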

How the results depend on the processing

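No probe set of the 14 passed at an adjusted p under 0.05 in any of 18 settings, whose smallest adjusted p was 0.131, and none that had an unadjusted p under 0.05 changed sign. Counts of the 14 at an unadjusted p under 0.05 moved as follows, and the cause was not tested. Day 21 (4 of 14): 2 with no replicate block, 0 with a separate spread for each day, 2 after scaling to 5 reference genes, 0 without the day 21 pair of cow 1 and 1 to 7 with a cow left out. It was 3 with a random or fixed replicate block or 1 probe set for each gene. Day 23 (1): 0 with probe sets under a mean of 5 left out, centring on medians, scaling to reference genes or 1 probe set for each gene, and 0 to 1 with a cow left out. Day 40 (0): 1 higher with a random replicate block or trend and robust moderation, 2 lower with separate spread, centring or reference genes, and 0 to 2 in either direction with a cow left out. Change to day 23 (1): 0 with no replicate block or 1 probe set for each gene, 2 with separate spread or quantile normalization, and 1 to 3 with a cow left out; with a random or fixed replicate block or without cow 1 the 1 was not VEGFA but the third probe set of FLT1, in the opposite direction. Change to day 40 (3): 1 with no replicate block or without the day 21 pair of cow 1, and 0 to 3 with a cow left out. It was 2 with a random or fixed replicate block, separate spread, trend and robust moderation, the filter, quantile normalization or 1 probe set for each gene. In the 2× glands, day 23 minus day 21 (2) gave 1 with reference genes, 0 without the day 21 pair of cow 1 and 0 to 4 with a cow left out. For day 40 minus day 21 (3) the count was 2 with no replicate block, 1 with reference genes or without that pair and 1 to 3 with a cow left out. Day 40 minus day 23 (1) gave 0 with no replicate block, the filter, centring, reference genes or without that pair, and 0 to 2 with a cow left out. In the 4× glands (0 in each step), day 40 minus day 21 gave 1 with reference genes, and each step gave 0 to 1 with a cow left out. Without the pairing the count thus fell on day 21 and for both changes, and on day 40 it was 0 either way. Nearness to background limits both probe sets of KDR, 2 of FLT1 and 1 of VWF, and 6 cows limit all.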
